A study of Mus musculus with 2 samples.

Results

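The lysozyme genes Lyz2 (ENSMUSG00000069516) and Lyz1 (ENSMUSG00000069515) were followed in every cell type of the tumor-infiltrating leukocytes of Pgdfl/fl and Pgdfl/flLysMCre mice. These 2 genes, of the 32285 in the count matrices, were chosen because Lyz2 is the locus into which the Cre recombinase of the LysMCre allele was placed and Lyz1 is its neighbouring copy. The questions were which leukocytes express Lyz2 without the Cre allele, where it is lost with it, what remains, and whether Lyz1 differs.

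The study asked what the loss of Pgd, which encodes the pentose phosphate pathway enzyme 6PGD, does to myeloid cells in tumors. Single-cell RNA was counted in 2 libraries, 1 per genotype. Control mice carried floxed Pgd on both alleles and no Cre (Pgdfl/fl, labelled WT), and the other mice carried the same floxed Pgd together with LysMCre (B6.129P2-Lyz2tm1(cre)Ifo/J) (Pgdfl/flLysMCre, labelled 6PGDKO). All were female, 6 to 12 weeks old, and received 500000 AT3 cells, a mouse mammary tumor line, in the mammary fat pad. Tumors of 10 mice per genotype were taken on day 30 and pooled, so genotype and pool cannot be told apart and no test between genotypes was possible. Both genotypes thus share the floxed Pgd and the AT3 tumor, and they differ in the Cre allele, which changes Lyz2 and Pgd together. Whether the mice carried LysMCre on 1 allele or on both is not given in the sources used here. Neither Cre nor a reporter was counted, so the cells in which Cre acted were not marked.

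Lysozyme cleaves the peptidoglycan of bacterial cell walls. In the mouse the gene is duplicated: Lyz2 (lysozyme M) is the copy used by macrophages, monocytes and granulocytes, while Lyz1 (lysozyme P) is best known from the Paneth cells of the small intestine. In the LysMCre allele the Cre sequence sits at the translation start of Lyz2 and interrupts it, so that the allele makes Cre in place of lysozyme M, and a mouse with the allele on both chromosomes lacks an intact Lyz2.

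Both genes lie on the minus strand of chromosome 10 of GRCm38.p6, Lyz2 at chr10:117277541-117282272 and Lyz1 at chr10:117287795-117292868, 5.5 kb apart. Their promoters are shown because the copies share an ancestry in the region that drives transcription but differ in the cells in which they were found. The 250 bases before each RefSeq start are printed 5′ to 3′ in the direction of transcription (Lyz2, chr10:117282273-117282522; Lyz1, chr10:117292869-117293118; both minus strand). Capitals mark bases that differ from, or have no partner in, the other promoter in a gapped alignment.
Lyz2: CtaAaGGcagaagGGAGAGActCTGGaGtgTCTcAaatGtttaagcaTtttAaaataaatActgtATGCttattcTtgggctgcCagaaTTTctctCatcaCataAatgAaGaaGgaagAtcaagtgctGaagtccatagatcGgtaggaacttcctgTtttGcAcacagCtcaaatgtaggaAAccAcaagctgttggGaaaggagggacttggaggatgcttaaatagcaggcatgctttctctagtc
Lyz1: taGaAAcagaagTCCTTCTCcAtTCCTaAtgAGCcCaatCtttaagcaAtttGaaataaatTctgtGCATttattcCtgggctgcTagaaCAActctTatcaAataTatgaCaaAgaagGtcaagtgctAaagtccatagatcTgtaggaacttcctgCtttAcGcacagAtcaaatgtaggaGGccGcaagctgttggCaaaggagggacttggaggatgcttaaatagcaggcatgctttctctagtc

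The promoters matched at 200 of 252 aligned positions (79.4%), with 48 substitutions and 4 gap positions, and the 50 bases next to the start were the same in both. A motif resembling the TATA box, TTAAATA, searched on both strands, began 28 bases before the start of both genes and was found in 4.18% of 32851 mouse RefSeq promoters over the same 250 bases. The letters AGGAAG, the core bound by ETS factors such as PU.1, were searched on both strands. They occurred at 2 places in Lyz2, 137 bases before the start on the strand printed and 99 bases before it on the opposite strand, and at 1 place in Lyz1, 99 bases before it on the opposite strand. As 29.5% of all promoters hold this motif, its presence is a description only. The transcripts are less alike: 195 of the 1220 words of 50 bases in the reference transcript of Lyz1 (15.98%) also occur in Lyz2, and the longest shared run is 118 bases. In the last 500 bases, 76 of 451 such words of Lyz1 and 0 of 451 of Lyz2 were shared. Reads from the shared stretches could not be assigned to 1 copy, so the split of counts between the copies is uncertain to that extent.

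The Pgdfl/fl library held 3728 barcodes with 27245625 UMIs (unique molecular identifiers, 1 per captured RNA molecule) and the Pgdfl/flLysMCre library 3014 barcodes with 28827045 UMIs. Filters on gene number and mitochondrial share left 3565 and 2798 cells, at a median depth of 5554 and 7926 UMIs. No barcode occurred in both libraries. The study states fewer analysed cells for each genotype. It describes a sort of live CD45+ cells, whereas the labels also name live CD11b+ cells, so shares of lymphocytes are read with care. Cells were clustered without Lyz2, Lyz1 and Pgd, so that no cluster depended on them. The 19 clusters were matched to marker lists. "Macrophages", "monocytes" and the other names stand for cells that carried such markers, and 2 clusters stayed unnamed, 1 with T cell markers led by mast cell protease genes and 1 led by H2-M5 and Epcam. B cells were 15.96% of kept cells in Pgdfl/fl and 1.25% in Pgdfl/flLysMCre. The deletion target was lower in the labelled direction: Pgd (chr4:149149991-149166705) stood at 106 CPM (UMIs per 1000000 UMIs of the summed cells) in Pgdfl/fl macrophages and 29.1 CPM in Pgdfl/flLysMCre macrophages. The floxed exons are not named in the sources used here, so counts from outside them may remain.

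Lyz2 separated the libraries more plainly than Pgd. Kept cells held 34507 Lyz2 UMIs in Pgdfl/fl and 414 in Pgdfl/flLysMCre, or 0.128% against 0.00146% of their UMIs. Over all barcodes, Lyz2 went from place 126 to place 6505 when genes were ordered by their UMIs. In kept cells Lyz1 went the other way, from 136 UMIs to 771. Of the Lyz2 UMIs, 97.5% lay in the macrophage, monocyte, neutrophil and DC clusters of Pgdfl/fl, and 82.4% in those of Pgdfl/flLysMCre.

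In Pgdfl/fl, where Lyz2 is intact, it marked monocytes and macrophages. Summed over cells, monocytes had the highest level, 3921 CPM (95% counting interval 3815 to 4029, 129 cells). Macrophages followed at 3144 CPM (3107 to 3181, 735 cells). The mean of per-cell CPM kept this order, at 4743 in monocytes and 3131 in macrophages. The median cell reversed it, with 16.7 Lyz2 UMIs per 10000 UMIs in monocytes and 22.2 in macrophages. A Lyz2 UMI was found in 82.9% of monocytes and 98.4% of macrophages, so the higher monocyte level does not describe the typical cell. The monocyte level depended on which cells were named: it was 13065 CPM with finer clusters and 6143 CPM without cells that carried markers of another lineage. The finer clusters named only 22 Pgdfl/fl and 44 Pgdfl/flLysMCre cells monocytes, led by Ifitm6, Chil3 and Ace. A cluster of 113 and 293 cells led by Cd209a and Ly6i stayed unnamed there, so the 13065 CPM belongs to a smaller set of cells. Neutrophils, a classical lysozyme-bearing granulocyte, came next with 494 CPM (387 to 622), from only 58 cells with a median of 2243.5 UMIs. The intervals cover counting error only, are too narrow where UMIs sit in few cells, and say nothing of the variation between mice.

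Below these types the levels were set by few cells. DCs stood at 146 CPM (127 to 168, 99 cells), and 84 of their 200 Lyz2 UMIs came from 1 cell. ILCs and NK cells stood at 452 CPM, an interval that overlapped that of neutrophils, but 279 of the 298 UMIs came from 1 cell and the other cells together gave 30.04 CPM. B cells had 38.6 CPM, with 27 and 25 of 89 UMIs in 2 cells. T cells were lowest among the leukocytes at 19.0 CPM (16.1 to 22.1, 1491 cells), with at most 9 UMIs in a cell. No cell type was therefore at 0, and the T cell level is used below as the level found in cells that should lack the gene.

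The small cluster led by Retnla, Fn1 and Ccl6, genes of alternatively activated and monocyte-derived macrophages, had the highest Lyz2 of all 19 clusters, 5557 CPM from 15 cells. Of its 599 Lyz2 UMIs, 433 came from the 6 cells that also held Lyz1. The large cluster led by Vcam1, Mmp13 and Apoe had 3204 CPM, the cluster led by immunoglobulin genes with Ccl8 and Ms4a7 had 3678 CPM, and cycling macrophages had 2095 CPM. Immunoglobulin genes led the third of these, with Jchain and Igha first, and stood among the leading genes of the cycling cluster, with Ighg2b first. These clusters were named macrophages because 9 and 11 macrophage markers were detected in them. Among DCs, cells with Xcr1 and Clec9a had 170 CPM and mature cells with Fscn1 and Ccl22 had 129 CPM. Of the 99 UMIs of the Xcr1 and Clec9a cells, 21, 19 and 15 came from single cells. Of the 101 UMIs of the mature cells, 84 came from 1 cell and the others together gave 22.6 CPM. The unnamed H2-M5 cluster had 101 CPM.

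The genes whose levels most resembled that of Lyz2 were sought over the 18 Pgdfl/fl clusters with at least 20 cells. The 10 closest of 5627 genes by Pearson correlation of log2(CPM + 1) were Tgfbi (0.94), Clec4a2 (0.94), Clec4a3 (0.92), Fcgr3, Fcer1g, Creg1, Cd300c2, Klra2, Igsf6 and Lst1 (0.90). Tgfbi encodes a secreted matrix protein, Fcgr3 is an IgG receptor, Fcer1g its signalling chain, and Clec4a2 and Clec4a3 are lectin receptors. The clusters share a library and differ in depth, so these values are a description. Unlike Lyz2, these 10 genes stayed near their level with the Cre allele: their log2 ratios of Pgdfl/flLysMCre over Pgdfl/fl ran from −0.49 to 0.08 in macrophages and from −0.87 to 0.22 in monocytes.

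With the Cre allele, Lyz2 was nearly absent from the cells that had carried most of it. Macrophages held 28198 Lyz2 UMIs in Pgdfl/fl and 263 in Pgdfl/flLysMCre, and their level went from 3144 to 26.0 CPM (22.9 to 29.3), a log2 ratio of −6.92 (−7.10 to −6.75). Of the 263 UMIs, 129 came from 1 cell. Without that cell macrophages stood at 13.3 CPM (11.1 to 15.7), 0.422% of the Pgdfl/fl level and a log2 ratio of −7.89. That cell had 32833 UMIs in all, and 18.75% of its tag counts from the oligos of both genotypes belonged to the Pgdfl/fl oligo, the highest share among the 756 macrophages of its library, whose median was 2.68%. Whether it is a doublet or a wrongly assigned cell was not tested.

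Monocytes went from 5187 UMIs to 52, or from 3921 to 12.8 CPM (9.56 to 16.8), a log2 ratio of −8.26 (−8.68 to −7.87) and 0.326% of the Pgdfl/fl level. No monocyte of Pgdfl/flLysMCre had more than 3 Lyz2 UMIs, against 340 in the highest Pgdfl/fl cell. Among the 7343 genes with at least 50 UMIs in monocytes, where 0.667% were lower by more than 1 log2 unit, Lyz2 had the lowest ratio. In macrophages, where 0.674% of 10390 genes were that much lower and the median of all genes was 0.07, Lyz2 had the fourth lowest ratio. The 3 genes ahead of it were immunoglobulin genes, Igkv1-135 (88 to 0 UMIs), Igkv1-110 (57 to 0) and Ighg2b (2628 to 20), and the B cell share differed between the libraries as given above. Their part in that order was not tested.

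**Figure D1:**
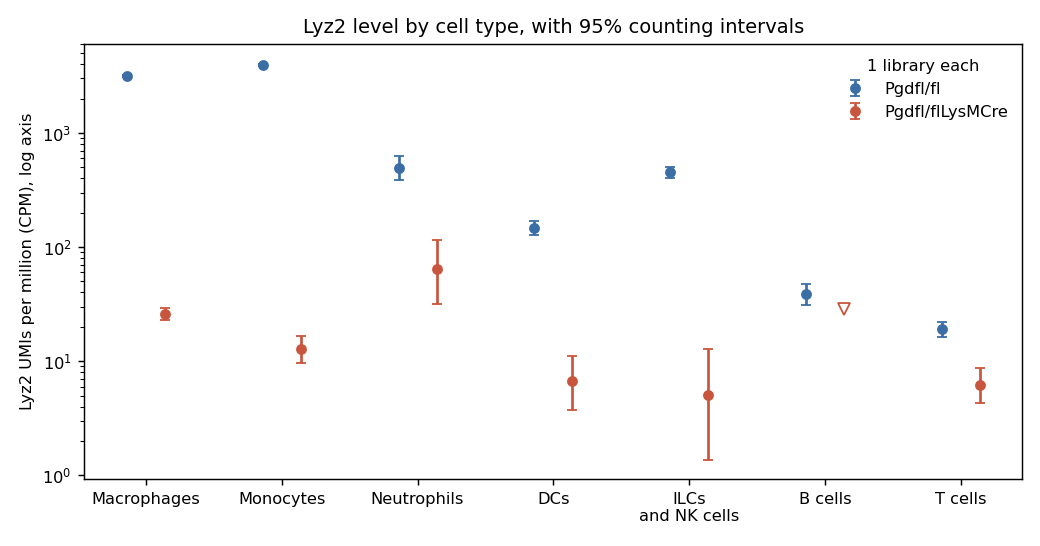
Lyz2 level by cell type in CPM on a log axis, 1 point per library with its 95% counting interval; the hollow triangle is the upper 95% limit for a type with 0 UMIs. Macrophages and monocytes of Pgdfl/fl sit at 3144 and 3921 CPM and those of Pgdfl/flLysMCre at 26.0 and 12.8 CPM, while the T cell levels are 19.0 and 6.23 CPM.

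In macrophages the difference was seen in most cells. In Pgdfl/fl, 558 of 735 macrophages (75.9%) had 10 or more Lyz2 UMIs and 12 had none. In Pgdfl/flLysMCre, 1 of 756 macrophages had 10 or more and 654 had none. The macrophage median was 22.2 Lyz2 UMIs per 10000 UMIs in Pgdfl/fl, and only 2 of the 756 Pgdfl/flLysMCre macrophages reached the level of the lowest 10% of Pgdfl/fl macrophages, 4.68 per 10000. Monocytes with 10 or more Lyz2 UMIs were 76 of 129 in Pgdfl/fl and 0 of 336 in Pgdfl/flLysMCre, and those with none were 22 and 295. Neutrophils and DCs of Pgdfl/fl were less uniform, as 31 of 58 neutrophils and 67 of 99 DCs had no Lyz2 UMI.

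**Figure D2:**
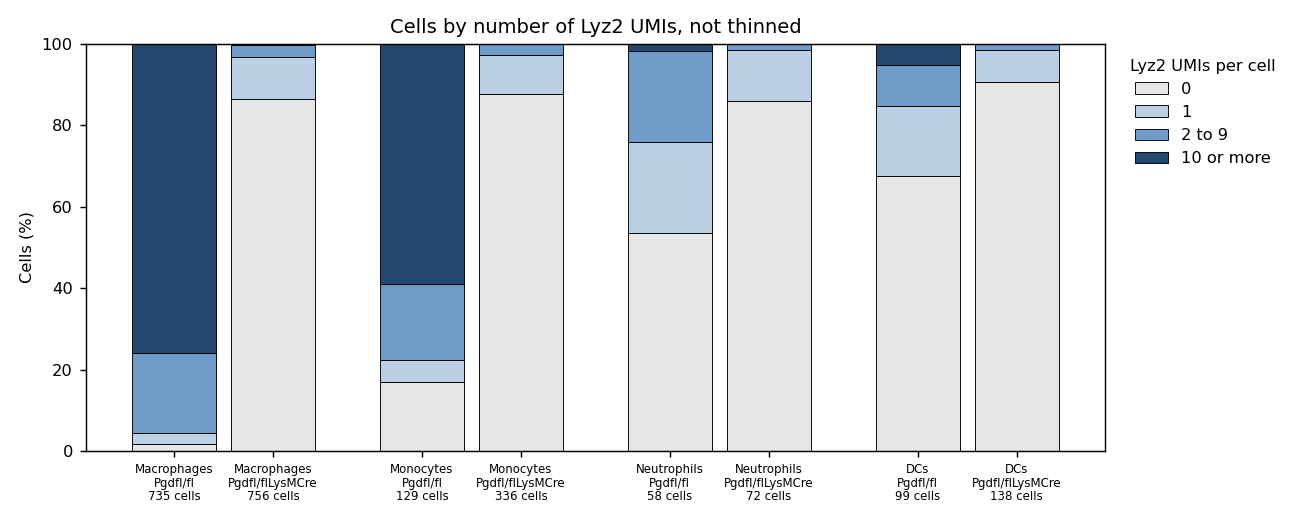
Share of cells (%) with 0, 1, 2 to 9, or 10 or more Lyz2 UMIs in the 4 myeloid types of each library, without thinning. Cells with 10 or more make up 75.9% of Pgdfl/fl macrophages and 0.132% of Pgdfl/flLysMCre macrophages.

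The same held at equal depth. After each cell was thinned to 2000 UMIs, 90.6% of Pgdfl/fl macrophages and 3.63% (2.38% to 5.27%) of Pgdfl/flLysMCre macrophages still showed a Lyz2 UMI, against 98.4% and 13.5% before thinning. For monocytes the thinned shares were 70.9% and 3.07%. T cells, at median depths of 4851 and 5047 UMIs before thinning, gave 2.99% and 1.79%. Within Pgdfl/flLysMCre the interval of the macrophage share reached down to 2.38% and that of the T cell share up to 2.94%, so these shares overlapped within counting error.

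What remained per type was read against T cells of the same library. In Pgdfl/fl the Lyz2 level of macrophages was 166 times (142 to 195) and that of monocytes 207 times (177 to 244) that of T cells. In Pgdfl/flLysMCre, without the cell with 129 UMIs, macrophages stood at 2.13 times (1.46 to 3.18) and monocytes at 2.05 times (1.31 to 3.25) the T cell level. DCs stood at 1.08 times (0.55 to 2.02) and ILCs and NK cells at 0.81 times. The residual in macrophages and monocytes was thus slightly above the T cell level, and in DCs it could not be told from it. Both genotypes were loaded together, and the part of RNA from Pgdfl/fl cells in these residual levels was not tested.

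Neutrophils had the smallest difference in Lyz2 among the myeloid types as counted, an order that did not hold in every setting. Their 58 Pgdfl/fl cells held 72 Lyz2 UMIs and their 72 Pgdfl/flLysMCre cells held 11, or 494 and 63.8 CPM (31.8 to 114), a log2 ratio of −2.95 (−4.02 to −2.03) with 12.9% remaining. At least 1 Lyz2 UMI was seen in 27 of 58 and 10 of 72 neutrophils, and no Pgdfl/flLysMCre neutrophil had more than 2. The remaining level was 10.2 times (4.69 to 20.6) the T cell level of its library. Lyz2 still had the lowest ratio of the 891 genes tested in neutrophils, of which 6.06% were lower by more than 1 log2 unit. The Pgdfl/fl level depended on the cell filter: with at least 1000 genes per cell it was 1559 CPM and the log2 ratio −5.11, below that of DCs as counted (−4.45). These cells were shallow, with medians of 2243.5 and 2113 UMIs, and hemoglobin genes were among their leading genes.

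In DCs Lyz2 went from 200 UMIs to 15, or from 146 to 6.71 CPM, a log2 ratio of −4.45 (−5.31 to −3.69), the lowest of 6055 genes, of which 0.231% were lower by more than 1 log2 unit. Without the Pgdfl/fl cell with 84 UMIs the log2 ratio was −3.69. Xcr1 and Clec9a cells (99 to 7 UMIs) had a log2 ratio of −4.57, with 21, 19 and 15 of the 99 UMIs in single cells. Mature Fscn1 cells (101 to 8 UMIs) had −4.34, or −1.83 (−3.25 to −0.54) without the cell with 84 UMIs. The unnamed H2-M5 cluster, with 155 and 14 UMIs, had a ratio of −4.22. T cells of the Pgdfl/flLysMCre library had a similar level (6.23 CPM), so the depth does not show how far below it Lyz2 in DCs would lie.

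Lymphocytes, which do not use Lyz2 as a rule, had few UMIs. T cells had 161 UMIs in Pgdfl/fl and 35 in Pgdfl/flLysMCre, 19.0 against 6.23 CPM (log2 −1.61, −2.18 to −1.07), place 29 from the lowest of 9499 genes, of which 0.821% were lower by more than 1 log2 unit. The T cell clusters differed: the 1 led by Lef1 and Dapl1 had 19 and 4 UMIs, 8.85 and 18.7 CPM, a ratio of 1.08 with an interval from −0.94 to 2.67. B cells went from 89 UMIs to 0 of 127556 UMIs in 35 cells, with an upper 95% limit of 28.9 CPM. Without the 2 highest Pgdfl/fl cells their level was 16.2 CPM (11.4 to 22.4), under that limit, so no direction can be read for B cells. In B cells 11.4% of 4511 genes were lower by more than 1 log2 unit. ILCs and NK cells had a log2 ratio of −6.49 as counted, the lowest of 3451 genes with 0.753% that much lower, of −2.58 without the 1 Pgdfl/fl cell that held 279 UMIs, and of −0.31 without cells that carried markers of another lineage.

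For comparison, C1qa, C1qb and C1qc, complement genes of macrophages, were found in T cells of Pgdfl/fl at 0.712% of their macrophage level, and Lyz2 at 0.603%. In Pgdfl/flLysMCre the C1q genes stood in T cells at 1.31% of their macrophage level, whereas Lyz2 stood at 46.9% of its own (without the cell with 129 UMIs). The C1q genes were also abundant in the macrophages of both libraries, at 13446 and 11503 CPM. Cells that carried markers of another lineage were frequent: leaving them out removed 538 of 1021 and 667 of 1302 myeloid cells and moved the T cell ratio of Lyz2 to −0.36. The part of free RNA and of mixed cells in the lymphocyte values was not tested.

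When the 2608 cells of the myeloid and the unnamed H2-M5 clusters were clustered again, Lyz2 was lower in all 15 subclusters of Pgdfl/flLysMCre. C1q macrophage-like cells led by Hes1 went from 3626 to 13.6 CPM (log2 −8.06) and those led by Tgfb3 and Vcam1 from 3056 to 12.4 CPM (−7.94). Lipid-associated macrophage-like cells with Gpnmb went from 4340 to 10.3 CPM (−8.72). Classical monocyte-like cells with Plac8 and Chil3 went from 4687 to 15.7 CPM (−8.23), and cycling cells from 1601 to 13.4 CPM (−6.90). The remaining level thus lay between 10.3 and 15.7 CPM in these 5 subclusters, while the level without Cre ranged from 1601 to 4687 CPM. The Langerhans-like cells, with Epcam and H2-M5, had little Lyz2 in either library (71.1 and 4.03 CPM). The Retnla and Fn1 subcluster went from 6065 to 18.8 CPM (−8.33). Neutrophils, clustered again, went from 1545 to 67.4 CPM (−4.52), against a log2 ratio of −2.95 in the first clustering. Of the 15 subclusters 5 stayed unnamed, with 4.60 to 55.2 CPM in Pgdfl/flLysMCre, and in 4 of them, 524 cells, lymphocyte genes led. The subcluster at 55.2 CPM includes the cell with 129 Lyz2 UMIs, and without that cell it had 13.7 CPM.

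Lyz1 was a rare transcript in both libraries, but more frequent with the Cre allele. A Lyz1 UMI was found in 38 kept cells of Pgdfl/fl and in 103 of Pgdfl/flLysMCre, of which 29 and 98 lay in myeloid clusters. Macrophages had 119 Lyz1 UMIs in Pgdfl/fl and 560 in Pgdfl/flLysMCre, or 13.3 CPM (11.0 to 15.9) and 55.3 CPM (50.8 to 60.0), a log2 ratio of 2.06 (1.77 to 2.36). Of the 119 UMIs, 62 came from 1 cell, and without it Pgdfl/fl macrophages had 6.36 CPM (4.82 to 8.24) and the ratio was 3.12 (2.72 to 3.54). The share of macrophages with a Lyz1 UMI was 23 of 735 (3.13%) and 67 of 756 (8.86%), or 1.26% and 4.18% after thinning to 2000 UMIs. Lyz1 had the 14th highest ratio of the 10390 genes tested in macrophages, of which 1.41% were higher by more than 1 log2 unit. In T cells 4 of 1491 and 4 of 876 cells had a Lyz1 UMI, 1 each.

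Monocytes showed the widest Lyz1 difference. They held 3 UMIs in 2 of 129 cells in Pgdfl/fl and 205 UMIs in 30 of 336 cells in Pgdfl/flLysMCre, or 2.27 CPM (0.468 to 6.63) and 50.5 CPM (43.8 to 57.9), a log2 ratio of 4.48 (2.91 to 6.77). The cells were unequal: the 4 highest held 38, 36, 22 and 17 UMIs, and without the 5 highest the level was 20.1 CPM. The ratio was the 7th highest of 7343 genes, of which 2.27% were higher by more than 1 log2 unit. The 5 highest were Tpsb2 (0 to 59 UMIs), Mcpt1 (0 to 88), Il2 (0 to 55), Ecrg4 (0 to 54) and Mcpt2 (1 to 319). Tpsb2, Mcpt1 and Mcpt2 are mast cell protease genes, and the part of mixed cells in this order was not tested. Neutrophils had 0 Lyz1 UMIs in both libraries, with upper 95% limits of 25.3 and 21.4 CPM, and ILCs and NK cells also had none. DCs had 5 and 1.

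**Figure D3:**
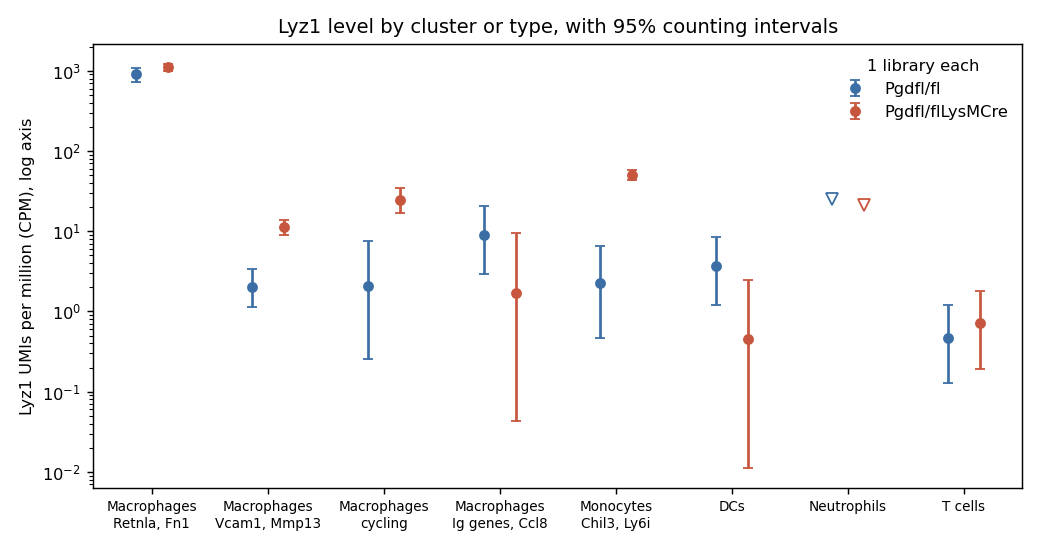
Lyz1 level in CPM on a log axis in the 4 macrophage clusters, monocytes, DCs, neutrophils and T cells, 1 point per library with its 95% counting interval; hollow triangles are upper 95% limits for 0 UMIs. The cluster led by Retnla and Fn1 stands at 900 CPM in Pgdfl/fl, with 62 of its 97 UMIs from 1 cell, and at 1101 CPM in Pgdfl/flLysMCre, and monocytes at 2.27 and 50.5 CPM.

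Much of the Lyz1 came from the small macrophage cluster led by Retnla and Fn1, with Ccl6, F13a1, Ear2, Ccl24, Folr2, Ccl9 and Mrc1. It held 97 of the 136 Lyz1 UMIs of Pgdfl/fl (71.3%) and 439 of the 771 of Pgdfl/flLysMCre (56.9%). Of the 97 UMIs, 62 came from 1 cell, without which the cluster held 35 of 74 (47.3%). Within it 6 of 15 and 27 of 53 cells had a Lyz1 UMI, at 900 CPM (730 to 1098) and 1101 CPM (1001 to 1209), a log2 ratio of 0.29 (−0.03 to 0.62). Without that cell the Pgdfl/fl level was 357 CPM (249 to 497) and the ratio 1.62 (1.13 to 2.17), so the size of a difference within the cluster rests on 1 cell. The cluster was 2.04% of macrophages in Pgdfl/fl and 7.01% in Pgdfl/flLysMCre.

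Macrophages outside that cluster had 22 UMIs in 17 of 720 cells in Pgdfl/fl and 121 UMIs in 40 of 703 cells in Pgdfl/flLysMCre, 2.48 and 12.4 CPM, a log2 ratio of 2.32 (1.66 to 3.05). The Vcam1 and Mmp13 cluster went from 15 to 87 UMIs (log2 2.45, 1.65 to 3.35) and cycling macrophages from 2 to 33 (3.54, 1.57 to 6.64). The immunoglobulin and Ccl8 cluster had 5 and 1 UMIs, opposite in direction with an interval that spans 0. Among the subclusters, classical monocyte-like cells went from 3 to 176 UMIs (log2 4.75), lipid-associated macrophage-like cells from 2 to 56 (4.53) and Hes1 C1q macrophage-like cells from 3 to 36 (3.74), whereas Tgfb3 and Vcam1 C1q macrophage-like cells had 5 and 3. In the lipid-associated cells 19.4% of Pgdfl/flLysMCre cells had a Lyz1 UMI.

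In Pgdfl/fl, all but 1 of the 29 myeloid cells with Lyz1 also held Lyz2. All 6 Lyz1 cells of the Retnla and Fn1 cluster, all 13 of the Vcam1 cluster and both monocytes did so. In Pgdfl/flLysMCre a Lyz2 UMI was found in 3 of 27, 4 of 33 and 4 of 30 such cells. Of the cells with at least 2 Lyz1 UMIs, 9 of 9 had Lyz2 in Pgdfl/fl and 6 of 58 in Pgdfl/flLysMCre. Among all macrophages a Lyz2 UMI was found in 98.4% of Pgdfl/fl and 13.5% of Pgdfl/flLysMCre cells. Among all monocytes the shares were 82.9% and 12.2%. These shares thus do not set Lyz1 cells apart from other cells of their type. The levels differed in the Retnla and Fn1 cluster of Pgdfl/fl. Its 6 cells with Lyz1 held 433 Lyz2 UMIs (10008 CPM) and its 9 cells without held 166 (2573 CPM). Retnla stood at 40516 against 2728 CPM in these few cells. The Lyz1 monocytes of Pgdfl/flLysMCre had more Ly6c2 than those without Lyz1 (773 against 450.1 CPM), more Ccl6 (370.1 against 179 CPM) and more Fn1 (259 against 54.7 CPM). Ly6c2 is a marker of classical monocytes, Ccl6 a chemokine gene and Fn1 encodes fibronectin. Cd209a stood at 48.1 against 79.1 CPM, Ccl24 at 21.1 against 42.1 CPM and Ear2 at 12.04 against 21.4 CPM. In the Lyz1 monocytes these rest on 16, 7 and 4 UMIs, each in 6.67% of cells, so no direction is read. The Lyz1 monocytes had 57.2 against 33.2 CPM of Ace, from 19 UMIs, and 96.3 against 89.3 CPM of Chil3. These cells were chosen by a Lyz1 UMI and come from 1 library, so the values are a description.

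The ratio of the copies within the same cells does not depend on library depth. Macrophages held 0.422 Lyz1 UMIs per 100 Lyz2 UMIs in Pgdfl/fl and 213 (184 to 247) in Pgdfl/flLysMCre, and monocytes 0.0578 and 394 (290 to 545). Summed over all macrophages and over monocytes of Pgdfl/flLysMCre, Lyz1 was therefore the more abundant of the copies. In macrophages outside the Retnla and Fn1 cluster it was not, with 121 Lyz1 UMIs beside 256 Lyz2 UMIs. Without the cell that held 129 Lyz2 UMIs, the 256 became 127. The Vcam1 and Mmp13 cluster, which includes that cell, held 38.0 Lyz1 UMIs per 100 Lyz2 UMIs. These were 87 Lyz1 UMIs beside 229 Lyz2 UMIs, or beside 100 Lyz2 UMIs without that cell. Lyz1, at 55.3 CPM in macrophages and 50.5 CPM in monocytes, did not approach the 3144 and 3921 CPM of Lyz2 in Pgdfl/fl. Summed over both copies, the log2 ratio was −5.28 in macrophages and −5.95 in monocytes.

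The other members of the lysozyme family gave no count to compare. Of 11 genes, 9 besides Lyz2 and Lyz1, none reached 50 UMIs over both libraries in macrophages or monocytes. The genes around the locus that could be tested were not past 1 log2 unit. Of the 15 protein-coding genes within 500 kb, 9 others than the lysozymes were tested in macrophages and 6 in monocytes, and none was past 1 log2 unit in either direction. Over all genes 1.41% were that much higher and 0.674% lower in macrophages, and 2.27% and 0.667% in monocytes. The median ratios of the tested neighbours were 0.09 and 0.13, beside 0.07 and 0.04 over all genes. Cpm, a carboxypeptidase gene, had 0 and 29 UMIs in monocytes, under the limit for a test. The nearest tested genes were Yeats4, a chromatin reader 53 kb away (0.09 and 0.21), and Cpsf6, an mRNA 3′ processing factor 62.4 kb away (0.27 and 0.51).

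**Figure D4:**
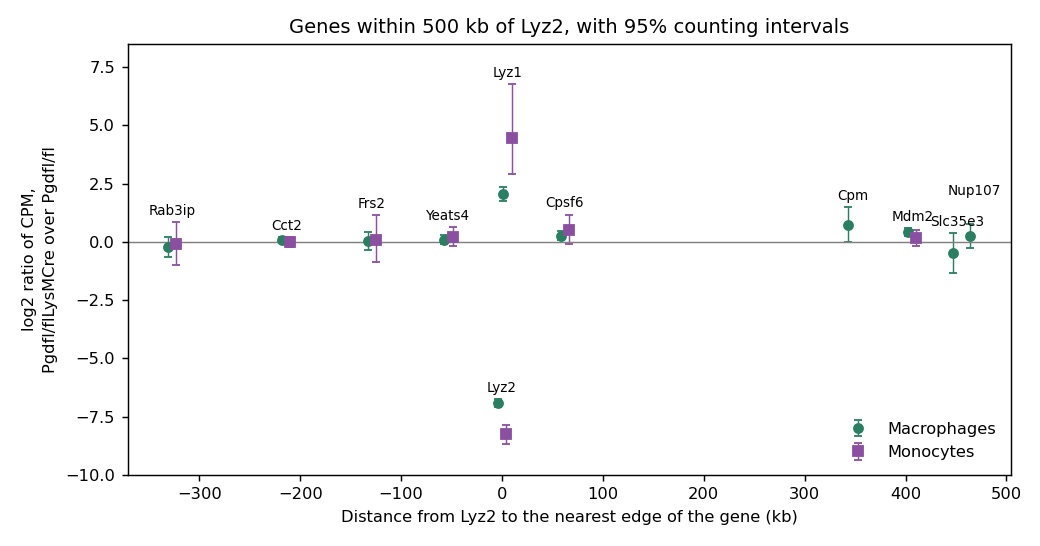
Log2 ratio of CPM (Pgdfl/flLysMCre over Pgdfl/fl) with 95% counting intervals for genes with at least 50 UMIs, against distance from Lyz2 in kb, in macrophages (circles) and monocytes (squares). Lyz2 lies at −6.92 and −8.26, Lyz1 at 2.06 and 4.48, and the other genes between −0.46 and 0.73.

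The regulators that are known to act on the Lyz2 promoter and on myeloid genes stayed near their level. Of 11 such genes 10 were tested, and 0 were past 1 log2 unit in macrophages or monocytes, with medians of −0.03 and −0.25. Over all genes 1.41% and 2.27% were that much higher and 0.674% and 0.667% that much lower. Spi1, which encodes PU.1, had ratios of −0.15 and −0.27, Cebpa −0.03 and 0.18, and Cebpb −0.19 and −0.46. The macrophage growth factor receptor gene Csf1r had 0.09 and −0.22.

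Granule and antimicrobial genes, the functional company of lysozyme, were mixed. In macrophages 10 of 19 were tested, 5 were past 1 log2 unit higher and 1 lower, with a median of 1.04, beside 1.41% and 0.674% of all genes. Chil3, a chitinase-like protein gene, went from 14 to 70 UMIs (2.15), and Pglyrp1, a peptidoglycan-binding protein gene, from 78 to 228 (1.37). Slpi, a secreted protease inhibitor gene, went from 3244 to 70 (−5.71), but 2734 of the 3244 UMIs came from 1 cell. The 10 Pgdfl/fl macrophages with the most Slpi held 99.0% of it and 96.5% of the immunoglobulin UMIs of all Pgdfl/fl macrophages. Outside the cycling cluster Slpi had 144 and 67 UMIs (−1.23), and the part of these few cells was not tested further. In monocytes 9 were tested, 3 were past 1 log2 unit higher and 3 lower, with a median of 0.25, beside 2.27% and 0.667% of all genes. The lower ones were the neutrophil alarmin genes S100a9 (141 to 12 UMIs, −5.17) and S100a8 (55 to 10, −4.08) and Slpi (−1.02), and the higher ones included the siderophore-binding Lcn2 (3 to 59, 2.68). S100a8 and S100a9 are also defining neutrophil markers, and were higher in macrophages (1.28 and 1.89), so they did not move together with Lyz2.

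Genes that sense the fragments lysozyme releases were few among those past 1 log2 unit. Of 14 such genes 13 were tested in macrophages and 11 in monocytes, with medians of 0.07 and 0.10, beside 0.07 and 0.04 over all genes. Pglyrp1 was the 1 gene past 1 log2 unit higher in macrophages, beside 1.41% of all genes. Nod1, an intracellular peptidoglycan receptor gene, was the 1 gene that much lower in monocytes (45 to 63 UMIs, −1.13), beside 0.667% of all genes. Nod2, the muramyl dipeptide receptor gene, had −0.46 and 0.19, Tlr2 −0.29 and −0.32, Nlrp3 −0.47 and 0.32, and Il1b −0.27 and 0.26.

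Pgd was lower in the clusters that normally express Lyz2. In macrophages it went from 948 to 295 UMIs, 106 to 29.1 CPM (log2 −1.86, −2.05 to −1.67), and in monocytes from 101 to 126 UMIs in unequal cell numbers, 76.4 to 31.0 CPM (−1.30, −1.69 to −0.91). With finer clusters, where only 22 and 44 cells were named monocytes, the monocyte ratio was −3.36. DCs had −0.14 (−0.81 to 0.54) and T cells 0.33 (0.03 to 0.62). Neutrophils, with 9 and 5 Pgd UMIs, had −1.09 with an interval from −3.02 to 0.64, so a difference was not detectable at this depth. Pgd had the 15th lowest ratio in macrophages and the 14th in monocytes.

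Over the 16 clusters with at least 20 Pgd UMIs, the 4 with at least 1000 CPM of Lyz2 in Pgdfl/fl had Pgd ratios from −2.23 to −1.30, and the interval lay below 0 in all 4. The other 12 clusters had ratios from −1.50 to 0.29, and the interval lay below 0 in 2, the unnamed H2-M5 cluster (−0.50) and the keratin-expressing epithelial cluster (−1.19). The correlation of the Pgd ratio with log2 Lyz2 level over the clusters was −0.81 (Pearson) and −0.78 (Spearman), given as a description of clusters that share both libraries. Within Pgdfl/fl macrophages thinned to 2000 UMIs, a Pgd UMI was found in 16.4% of the 67 cells with no Lyz2 UMI, in 14.7% of 300 with 1 to 4 and in 15.4% of 345 with 5 or more, shares that overlapped within counting error. In Pgdfl/flLysMCre macrophages with no Lyz2 UMI the share was 4.92% of 691.

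**Figure D5:**
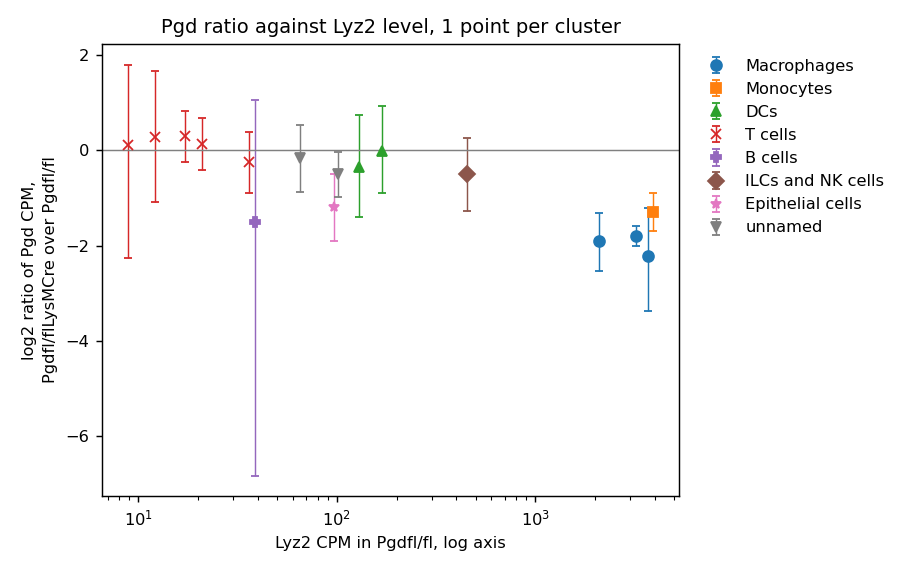
Log2 ratio of Pgd CPM (Pgdfl/flLysMCre over Pgdfl/fl) with 95% counting intervals against Lyz2 level in Pgdfl/fl (CPM, log axis), 1 point per cluster with at least 20 Pgd UMIs. The 3 macrophage clusters and the monocyte cluster, at the right, lie between −2.23 and −1.30.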

How the data were processed

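The authors tagged both suspensions with multiplexing oligos, loaded them together, counted with Cell Ranger 6.1.2 against mm10 (per the labels) and deposited unnormalized UMI counts per gene and barcode; the use of intronic reads and the library chemistry are not given in the sources used here. Types follow the study's filters (500 to 7500 genes, at most 15% mitochondrial UMIs) and Seurat 5.3.0 in R 4.3.3: genes in at least 3 cells, 2000 variable genes without Lyz2, Lyz1 and Pgd, 30 principal components, 20 neighbours, resolution 0.8, both libraries merged without integration. A cluster was named from at least 3 markers found in at least 25% of its cells. No doublet caller was run; cells with at least 2 UMIs of markers of another lineage were left out as an alternative.

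UMIs were summed per type and library and scaled to CPM, with exact Poisson, Clopper-Pearson and conditional 95% intervals from scipy 1.17.1 in Python 3.11.15. Genes with at least 50 UMIs over both libraries were ranked, and a log2 ratio past 1 was counted. For shares of cells, cells were thinned to 2000 UMIs with seed 1, which left out 137 and 147 shallower cells. With 1 library per genotype there was no test. The scripts were tested on simulated data. The GRCm38.p6 RefSeq tables gave positions and promoters, and GENCODE transcripts of GRCm39 the shared words; promoters were aligned with match 1, mismatch −1 and gap −2. Both genes were matched by Ensembl identifier. Named genes were Lyz2, Lyz1, Pgd, 5 lists (lysozyme family, granule, regulators, peptidoglycan sensing, neighbours within 500 kb), the 10 genes most like Lyz2 and those that lead a cluster or a ranking; the members and lists were chosen with earlier results of these data known.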

Additional observations from a re-analysis of the deposited data

Results flagged for a closer look

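The multiplexing oligos were not used to define cell types or levels. In Pgdfl/fl cells the oligo of the other genotype gave 6.46% of the UMIs of both oligos, and in Pgdfl/flLysMCre cells 4.51%, with medians of 134 and 98 UMIs per cell. The 10 oligos that belong to neither genotype gave 0.00689% and 0.00206% of UMIs. This signal was marked because it lies in data outside the main measurement and above that of the unused oligos. Its part in the residual Lyz2 of Pgdfl/flLysMCre cells was not tested beyond the cell with 129 Lyz2 UMIs described above.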

How the results depend on the processing

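No paired analysis was possible because there was 1 library per genotype. Of 187 values recomputed for 34 results, 132 stayed within the counting interval of the reported value, 53 moved outside it and 2 reversed. The Lyz2 ratio was below 0 in 42 of 42, the Lyz1 ratio above 0 in 15 of 17 and the Pgd ratio below 0 in 21 of 28. The 2 reversals are the sums of both copies in place of Lyz1 alone (−5.28 in macrophages, −5.95 in monocytes), which is another quantity. Leaving out single cells, or the cluster led by Retnla and Fn1, was chosen after seeing the data. At resolution 1.6 only 22 and 44 cells were named monocytes, so the monocyte values given for it belong to that smaller set.
Lyz2 log2 ratios moved as follows. Without cells that carried markers of another lineage they were −8.30 in macrophages, −0.36 in T cells and −0.31 in ILCs and NK cells; with the T cell level subtracted, −7.31 in macrophages, −9.21 in monocytes and −8.06 in DCs; as a mean of per-cell CPM, −7.41 in macrophages; with at least 1000 genes, −5.11 in neutrophils; thinned, −0.93 in T cells; without the highest cell, −7.89 in macrophages and −2.58 in ILCs and NK cells. Lyz1 in macrophages was 1.47 without other-lineage cells and 3.12 without the Pgdfl/fl cell with the most Lyz1. Pgd was −1.74 in monocytes without other-lineage cells, −3.36 there at resolution 1.6, and 0.67 in thinned T cells.
Lyz2 CPM in Pgdfl/fl macrophages was 3072 at resolution 1.6, 3059.6 with the 3 genes kept for clustering, 3185 thinned and 3705 without other-lineage cells; in Pgdfl/flLysMCre macrophages it was 18.4 as a mean, 11.8 without other-lineage cells and 13.3 without the highest cell. Pgdfl/fl monocytes gave 13065 at resolution 1.6, 4743 as a mean, 4783 thinned and 6143 without other-lineage cells, and Pgdfl/flLysMCre monocytes 33.1 at resolution 1.6. Pgdfl/fl neutrophils gave 1559 with at least 1000 genes. Pgdfl/fl DCs gave 105 as a mean, 91.8 thinned and 97.6 without other-lineage cells, and Pgdfl/flLysMCre DCs 0 thinned. Pgdfl/fl T cells gave 25.5 at resolution 1.6, 23.7 with the 3 genes, 23.2 with at least 1000 genes, 24.3 as a mean and 10.3 without other-lineage cells, and Pgdfl/flLysMCre T cells 8.96 thinned.
Lyz1 UMIs per 100 Lyz2 UMIs in macrophages were 0.964 and 839 without other-lineage cells, and in monocytes 0 and 1000 at resolution 1.6. Cells with a Lyz2 UMI were 98.4% and 13.5% of macrophages and 82.9% and 12.2% of monocytes without thinning, 95.5% of Pgdfl/fl macrophages and 84.8% of Pgdfl/fl monocytes without other-lineage cells, and 100% and 11.4% of monocytes at resolution 1.6. With at least 10 UMIs Lyz2 was at place 13 from the lowest in macrophages. Ranking likeness by Spearman correlation shared 4 of the 10 genes. The cause of these shifts was not tested. With 3 Lyz1 UMIs in Pgdfl/fl monocytes and 11 Lyz2 UMIs in Pgdfl/flLysMCre neutrophils, depth limits those ratios.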
